A study of Mus musculus with 2 samples.

Results

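Foxp3-positive T cells were picked out of droplet-based single-cell RNA sequencing of immune cells from mouse lymph nodes, in 1 library from wild-type mice (WT) and 1 from mice carrying an RPA1 conditional knockout (CKO), all of the C57BL/6 strain. A cell was a member when it held 500 or more unique molecular identifiers (UMIs, each counting 1 captured transcript), 200 or more genes, a mitochondrial share of 10% or less, at least 2 UMIs over Cd3d, Cd3e and Cd3g, at least 1 UMI of Foxp3, and none of Cd8b1, Trdc, Cd79a or Ms4a1. The rule found 235 cells in WT and 197 in CKO, 432 of the 26523 barcodes in all. The Cre driver, the cells and exons deleted, and the number, age and sex of the mice are not given in the sources used here. No difference between the genotypes could be tested with 1 library each, so every interval below is a 95% interval that covers counting error only. A difference between animals cannot be told apart from one between genotypes.

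Regulatory T cells restrain other immune cells and prevent autoimmunity. Their lineage factor is Foxp3, they bind interleukin-2 through a receptor whose alpha chain is Il2ra, and they act in part through Ctla4, which takes costimulatory ligands off antigen-presenting cells. In lymph nodes they are commonly divided into resting (central) cells, which carry the homing receptor Ccr7 and recirculate, and effector cells, which have met antigen and carry Icos, Itgae and transcription factors such as Maf. Rpa1 encodes the large subunit of replication protein A, a complex that shields exposed single DNA strands while the genome is copied or mended.

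The members held 1704281 UMIs in WT and 1190721 in CKO, with a median of 6097 and 4918 UMIs per cell. The libraries shared 56 barcodes, and no barcode was a member in both. Of the members, 109 in WT and 93 in CKO rested on exactly 1 Foxp3 UMI. Just inside the other limits lay 1 WT and 5 CKO cells with exactly 2 Cd3 UMIs, and just outside lay 2 and 3 cells with a Foxp3 UMI and 1 Cd3 UMI. Of the cells with Foxp3 and Cd3 UMIs, 118 of 420 in WT and 140 of 386 in CKO were left out for a UMI of Cd79a or Ms4a1, both B cell genes. Before that exclusion B cell UMIs were found in 29.6% of Foxp3-positive cells in WT and 36.9% in CKO, against 13.7% and 29.0% of Foxp3-negative cells with a Cd4 UMI.

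The values of the rule itself are a description. Foxp3 (ENSMUSG00000039521, GRCm38, chromosome X, 7573644 to 7595245, plus strand) stood at 299.8 CPM in WT against 371 CPM in CKO (UMI counts scaled to a total of 1e6 over the members of a library), from 511 and 442 UMIs. Of the T cells that met every condition except Foxp3, 235 of 4392 held a Foxp3 UMI in WT (5.35%, 4.70 to 6.06%) and 197 of 2066 in CKO (9.54%, 8.30 to 10.9%). After every cell was thinned to 2000 UMIs, leaving out 34 and 16 shallower cells, the shares were 2.80% and 5.85%. In B cells, which should lack Foxp3, a UMI was found in 0.162% of WT and 0.112% of CKO cells, at median depths of 4054 and 3944 UMIs, against 5876 and 5468 UMIs in the T cells. Cd8b1-positive T cells, taken as another population that should lack Foxp3, had it in 1.70% (1.30 to 2.19%) of 3471 WT cells. In CKO it was found in 4.41% (3.07 to 6.11%) of 771 such cells. Thinned to 2000 UMIs these shares were 0.779% and 2.60%. A higher share in CKO was thus not limited to the T cells of the rule, and its cause was not tested. Of all kept cells the members were 1.89% in WT and 1.48% in CKO. The T cell share thus stood higher in CKO while the share of all kept cells did not, beside 2468 B cells in WT and 7139 in CKO.

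The label was checked against markers of regulatory T cells other than Foxp3. At least 1 UMI of Il2ra, Ikzf4, Ctla4, Lrrc32 or Ikzf2 was found in 203 of 235 members in WT (86.4%) and 159 of 197 in CKO (80.7%), against 15.3% and 16.2% of Foxp3-negative Cd4 T cells, which numbered 2837 and 1315. Il2ra stood 36.9 times as high in Foxp3-positive as in Foxp3-negative Cd4 T cells of WT and 26.2 times as high in CKO. Lrrc32, which holds latent TGF-beta at the cell surface, stood 47.9 and 53.5 times as high. Ikzf4, the transcription factor Eos, stood 7.99 and 6.64 times as high, and Ctla4 9.95 and 13.1 times. Of 4721 genes at a mean of at least 25 CPM, 187 (3.96%) were at least 1.5-fold higher in Foxp3-positive cells of both libraries with an interval excluding 1, and 54 (1.14%) were lower. Of the 25 measured genes on a list of 30 regulatory T cell genes, 23 were among the higher ones. Lower ones included Tcf7 (0.466 in WT, 0.337 in CKO), a factor of naive T cells, Igfbp4 (0.365 and 0.279) and Cd40lg (0.33 and 0.255), the helper ligand for B cells. Among these genes the cells were chosen on Foxp3 alone, and the markers did not go against the label.

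B cell transcripts were common among the members, with an Ighm UMI in 149 of 235 in WT and 85 of 197 in CKO, and those of other cell types were at lower levels. The summed level of 7 gamma delta T cell genes was 4.11 CPM in WT against 18.5 CPM in CKO, that of 11 natural killer cell genes 16.4 and 31.9 CPM, with 6 and 3 of them at 0, and Cd8a stood at 2.35 and 0.84 CPM. The 11 myeloid genes summed to 163 and 148 CPM, of which Cst3 gave 148 and 112 CPM and 8 and 6 genes were at 0. The 4 plasma cell genes summed to 45.8 and 59.6 CPM, almost all of it Xbp1, and the 7 stromal and erythroid genes to 109.7 and 120.1 CPM, of which Pecam1 gave 109.7 and 120.1 CPM. The 15 B cell genes summed to 806 and 450.1 CPM and are described with Ighm below.

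Rpa1, the targeted gene (ENSMUSG00000000751, GRCm38, chromosome 11, 75298166 to 75348324, minus strand), was sparse in these cells. It gave 63 UMIs in 48 WT members and 33 UMIs in 25 CKO members, or 37.0 and 27.7 CPM, a CKO over WT ratio of 0.75 (0.477 to 1.16). The interval includes 1, so a difference was not detectable at this depth. In Foxp3-negative Cd4 T cells the ratio was 0.507 (0.431 to 0.595). A count at the transcript's end can lie outside the deleted exons and then checks nothing. Rpa2 (0.988, 0.594 to 1.62) and Rpa3 (1.12, 0.798 to 1.55), the other subunits, had ratios whose intervals included 1.

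Between the genotypes, 4809 genes were measured, that is at a mean of at least 25 CPM over both libraries. In CKO 187 genes (3.89%) were higher and 230 (4.78%) were lower by at least 1.5-fold with an interval excluding 1, and the median log2 ratio over all was 0.03. In Foxp3-negative Cd4 T cells 47 of 4588 genes (1.02%) were higher and 31 (0.676%) lower. That population held more UMIs, 18234574 in WT and 7967379 in CKO. Of the 230 lower genes 5 had over 25% of their WT UMIs in 1 cell. Of the 187 higher genes 34 had over 25% of their CKO UMIs in 1 cell, and cycling genes among those are described below. Below, higher and lower are used of genes that passed this limit.

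Most effector regulatory T cell genes that were measured stood lower in CKO. Of the 31 on the list, 21 were measured, and 15 of these were lower and 1 higher, beside 4.78% and 3.89% of all genes. Their median log2 ratio was -1.05, against 0.03 over all genes and -0.09 for the list in Foxp3-negative Cd4 T cells. The list was chosen with earlier results of these data known, so its direction is not independent evidence. By summed counts B cell transcripts were mostly lower too: of 15 B cell genes, 6 were measured, of which 5 were lower and 1 higher (median log2 ratio -1.15), with Cd79a and Ms4a1 at 0 by the rule. Of the 5, Cd74, H2-Aa, H2-Ab1 and H2-Eb1 had 72.1% of their WT UMIs in 1 cell. The median of the B cell list, over 5 genes in either setting, was 0.20 as a mean over cells and 0.50 with cells thinned to 2000 UMIs. These settings gave -1.23 and -1.26 for the effector list. The log2 ratio of Ighm, also among the lower B cell genes, stayed below 0 under all 13 alternatives (-1.90 to -0.67). The part of B cell RNA in the effector values was not tested. The other 10 members of the effector list (Klrg1, Il1rl1, Ccr8, Cxcr3, Irf4, Prdm1, Ccr6, Cxcr6, Pdcd1 and Nfil3) were under the floor. Among them Irf4, a factor needed for effector differentiation, gave 62 UMIs in WT and 4 in CKO, and Cxcr3, a chemokine receptor, gave 47 and 6.

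Maf, a transcription factor of interleukin-10 producing and follicular T cells (ENSMUSG00000055435, GRCm38, chromosome 8, 115682942 to 115707794, minus strand), stood at 269 CPM in WT against 34.4 CPM in CKO. Its 458 UMIs came from 65 of 235 members in WT, and its 41 UMIs from 11 of 197 in CKO. The ratio was 0.128 (0.0907 to 0.177) in Foxp3-positive and 0.262 (0.208 to 0.328) in Foxp3-negative Cd4 T cells, a difference of -1.03 on the log2 scale (-1.59 to -0.47). Maf was thus lower on both sides of the Foxp3 limit, and further below 1 among the members.

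Icos, a costimulatory receptor that maintains effector cells (ENSMUSG00000026009, GRCm38, chromosome 1, 60977927 to 61000320, plus strand), stood at 162 CPM in WT (276 UMIs, 74 cells) against 31.1 CPM in CKO (37 UMIs, 24 cells). The ratio was 0.192 (0.132 to 0.271), against 0.619 (0.524 to 0.727) in Foxp3-negative cells. Itgae, the CD103 integrin chain that binds E-cadherin of epithelia, had the lowest ratio of the list. It gave 147 UMIs in 36 WT cells and 9 UMIs in 6 CKO cells, or 86.3 and 7.56 CPM, a ratio of 0.0876 (0.0393 to 0.171), while in Foxp3-negative cells it was 0.88 (0.451 to 1.63). The difference of the 2 log2 ratios was -3.33 (-4.62 to -2.03), an interval that excludes 0.

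The calcium-binding proteins S100a6 and S100a4, which are abundant in activated and migrating T cells, were lower as well. S100a6 gave 511 UMIs in 42 WT cells and 52 UMIs in 7 CKO cells, a ratio of 0.146 (0.107 to 0.194), and 1 CKO cell held 61.5% of its UMIs. S100a4 gave 228 UMIs in 33 WT cells and 24 in 3 CKO cells (0.151, 0.0946 to 0.23), and 1 CKO cell held 91.7%. Integrin beta 1 (Itgb1), which pairs with several alpha chains on effector cells, had a ratio of 0.306 (0.223 to 0.413), the scaffold gene Ahnak 0.345 (0.256 to 0.459), the chemokine receptor gene Ccr2 0.302 (0.161 to 0.533), and the TNF receptor gene Tnfrsf1b 0.483 (0.305 to 0.743). S100a10, S100a11, Rora, Batf, Anxa2 and Cd44 had ratios between 0.433 and 0.653. The exception was Gata3, a factor of regulatory T cells in tissues and of type 2 helper cells, at 71.6 CPM in WT against 121 CPM in CKO (1.69, 1.32 to 2.17), against 0.938 (0.827 to 1.06) in Foxp3-negative cells. Lgals1, Vim, Crip1, Samsn1 and Tnfrsf9 were measured and did not pass the limit, with ratios between 0.93 and 1.33.

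**Figure D1:**
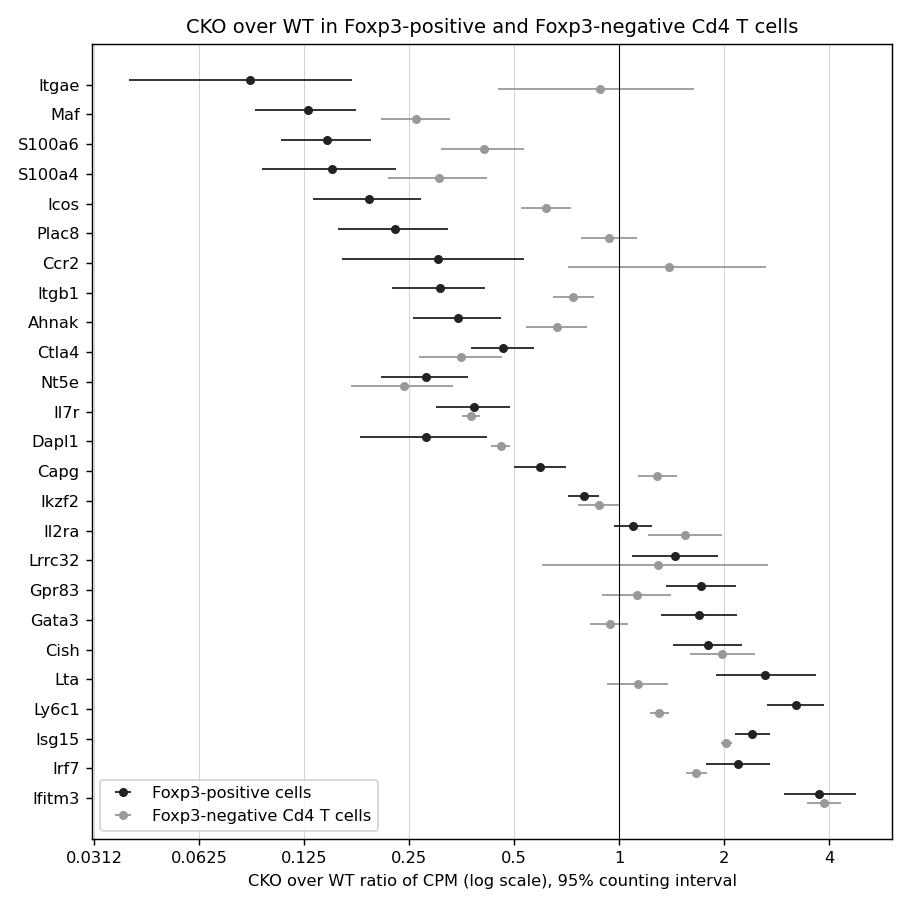
CKO over WT ratio of CPM (horizontal log scale) for 25 genes in Foxp3-positive cells (black) and Foxp3-negative Cd4 T cells (grey), with exact 95% counting intervals and 1 library per genotype. Itgae, Plac8 and Ccr2 lie far below 1 in Foxp3-positive cells with grey intervals that include 1, whereas Il7r, Nt5e and Ifitm3 lie at like ratios in both.

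Some of the genes that differed most belong to no list. Of the 15 lowest, Gbp2b, a guanylate-binding GTPase, gave 85 UMIs in 18 WT cells and 1 UMI in CKO (0.0168, 0.000421 to 0.0964). Prg4, which encodes lubricin, gave 103 and 9 UMIs (0.125, 0.0556 to 0.247). Plac8, a small cysteine-rich protein of lymphoid and myeloid cells, gave 233 and 37 UMIs (0.227, 0.156 to 0.323), from 30 WT and 16 CKO cells, while its ratio in Foxp3-negative cells was 0.936 (0.776 to 1.13). Timp2, Glrx, Lrig1 and Rilpl2 had ratios between 0.237 and 0.3. These genes were found in few cells, 18 to 66 of the 235 WT members.

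Of 25 measured genes of the regulatory identity list 1 was higher (Gpr83), 5 were lower (Ctla4, Nt5e, Capg, Itgae, Cd83) and 19 were not called, beside 3.89% and 4.78% of all genes higher and lower, with a median log2 ratio of 0.10. Itgae is a member of both this list and the effector list. Il2ra stood at 342 CPM in WT against 375 CPM in CKO (1.09, 0.966 to 1.24). Ikzf2 was at 598 and 473 CPM (0.791, 0.712 to 0.877), Ikzf4 at 93.3 and 112 CPM (1.20, 0.944 to 1.52), and Lrrc32 at 60.4 and 87.3 CPM (1.45, 1.09 to 1.92). None of these reached 1.5-fold, though the intervals of Ikzf2 and Lrrc32 lay on 1 side of 1. The TNF receptor family members Tnfrsf18 (GITR) and Tnfrsf4 (OX40) had ratios of 1.24 and 1.11.

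Ctla4 stood at 226 CPM in WT against 105 CPM in CKO, from 386 UMIs in 137 cells and 125 UMIs in 68 cells, a ratio of 0.464 (0.376 to 0.569). It was also lower in Foxp3-negative Cd4 T cells (0.353, 0.267 to 0.46). Nt5e (CD73), which makes adenosine at the cell surface, gave 303 and 59 UMIs (0.279, 0.207 to 0.369), against 0.242 (0.171 to 0.334) in Foxp3-negative cells. For both genes the interval of the difference between the populations included 0. Capg, an actin-capping protein, had a ratio of 0.594 (0.499 to 0.705) among the members and of 1.29 (1.13 to 1.46) in Foxp3-negative cells. Capg is also a B cell gene, with a UMI in 37.7% of WT and 38.3% of CKO B cells after thinning. Gpr83, a receptor enriched in regulatory T cells, was at 82.7 CPM in WT against 142 CPM in CKO (1.72, 1.36 to 2.16). Of a list of 22 suppressive genes 6 were measured, of which 1 was higher and 2 were lower, beside 3.89% and 4.78% of all genes. Besides Ctla4 and Nt5e, Cd274 (PD-L1), a ligand that restrains other T cells, was higher at 28.2 and 47.9 CPM (1.70, 1.14 to 2.55), though its log2 ratio was -0.30 when a Cd4 UMI was also required. Tgfb1, at 103 and 114 CPM (1.11, 0.878 to 1.39), Lgals1 and Lrrc32 were not called. Under the floor, Il10 gave 30 UMIs in WT and none in CKO, where a count of 0 allows up to 2.52 CPM, and Entpd1 (CD39) gave 28 and 4 UMIs.

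Shares of members with a UMI of a gene, taken after thinning every cell to 2000 UMIs, do not rest on a few deep cells. A Maf UMI was found in 19.7% of 234 WT members (14.8 to 25.3%) and 3.08% of 195 CKO members (1.14 to 6.58%), against 1.64% and 1.83% of B cells. Without thinning these shares were 27.7% and 5.58%. Icos was found in 17.1% (12.5 to 22.5%) and 3.59% (1.46 to 7.26%), S100a6 in 12.8% and 1.03%, S100a4 in 10.3% and 0.513%, and Itgae in 10.7% and 1.54%. The B cell shares of Icos, S100a4 and Itgae were at most 0.313%, while S100a6, at 1.31% and 2.26% in B cells, was at that background in CKO. Ctla4 was found in 30.8% (24.9 to 37.1%) and 16.9% (11.9 to 22.9%), Nt5e in 19.2% and 9.23%, and Izumo1r, the folate receptor 4 of regulatory T cells, in 54.3% (47.7 to 60.8%) and 34.9% (28.2 to 42.0%). All 3 were also found in a smaller share of Foxp3-negative Cd4 T cells in CKO. There the WT and CKO shares were 3.58% and 1.38% for Ctla4, 2.87% and 1.07% for Nt5e, and 18.2% and 9.32% for Izumo1r. Of the 21 measured effector genes 8 had intervals that lay wholly lower in CKO and 1 (Samsn1, an adaptor of lymphocyte signalling, 13.2% and 24.6%, with 17% and 14.5% in B cells) wholly higher. Of the 25 measured identity genes 4 lay wholly lower and none higher. Over all 4809 measured genes 0.894% lay wholly lower and 0.915% wholly higher. Il2ra was found in 38.9% (32.6 to 45.5%) and 43.1% (36.0 to 50.3%), with overlapping intervals.

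Some resting genes were found in a larger share of CKO members, although the list as a whole had a median near that of all genes. Klf2, a factor of resting T cells that drives the egress receptor gene S1pr1, was found in 66.7% of WT members (60.2 to 72.7%) and 83.1% of CKO members (77.1 to 88.1%). Ly6c1, a surface protein of many resting T cells whose reads may be shared with its close copy Ly6c2, was found in 16.7% (12.1 to 22.1%) and 33.8% (27.2 to 41.0%). Klf2 was also found in 66.7% of WT B cells and 66.7% of CKO B cells, which express the gene themselves, and the part of free RNA in the members' shares was not tested. On the CPM scale Ly6c1 was higher, at 97.4 and 312 CPM (3.20, 2.66 to 3.86), against 1.30 (1.22 to 1.38) in Foxp3-negative cells. Klf2 (1.37, 1.26 to 1.49) was under 1.5-fold, as was Bcl2 (1.44, 1.28 to 1.62), which protects resting lymphocytes from death.

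Ccr7, which guides cells into the T cell zone, did not differ beyond counting error in its share (27.4% and 26.7%) or ratio (0.963, 0.796 to 1.16). The list's median log2 ratio was 0.04, with 1 of 22 measured members higher and 2 lower, beside 3.89% and 4.78% of all genes. By share, 3 of the 22 lay wholly higher in CKO and 1 wholly lower, beside 0.915% and 0.894% of all genes. Il7r, the interleukin-7 receptor that keeps resting T cells alive, was lower, at 191 CPM in WT against 73.1 CPM in CKO (0.383, 0.299 to 0.487), and found in 28.6% (22.9 to 34.9%) and 11.3% (7.21 to 16.6%). Foxp3-negative Cd4 T cells had nearly the same Il7r ratio, 0.376 (0.354 to 0.399). Dapl1, a gene of naive T cells, was lower in both populations as well, at 0.279 (0.18 to 0.417) and 0.457 (0.429 to 0.487).

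**Figure D2:**
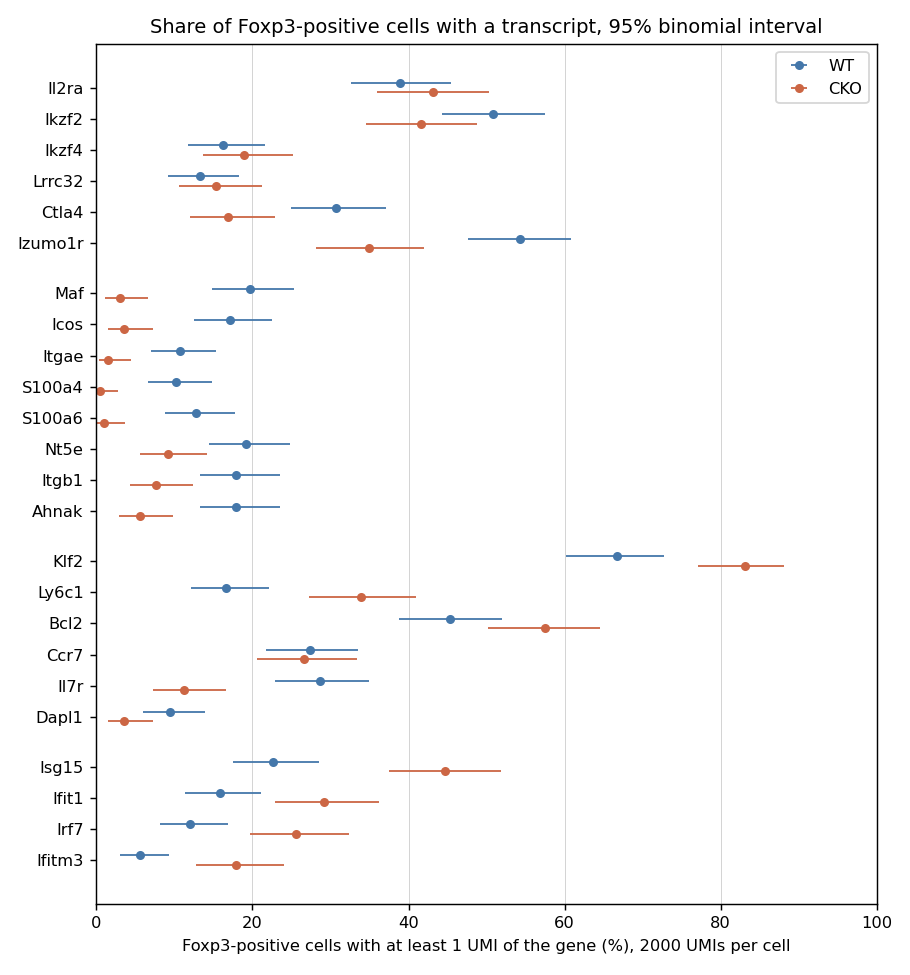
Percentage of Foxp3-positive cells with at least 1 UMI of each gene after thinning every cell to 2000 UMIs (horizontal axis), for 234 WT cells (blue) and 195 CKO cells (orange) with exact 95% binomial intervals; blocks from the top are identity, effector, resting and interferon-stimulated genes. The WT points lie right of the CKO points for all 8 genes of the effector block, and left of them for Klf2, Ly6c1 and the 4 interferon-stimulated genes. The effector block holds Nt5e of the identity list and only genes that were lower in CKO by CPM. Samsn1 and Gata3 of the effector list, with larger shares in CKO, are not drawn. Of the 31 genes on the effector list 23 had a smaller share in CKO.

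Some WT members held transcripts of several of the genes that stood low in CKO. A count of 10 such genes per cell (Maf, Icos, Itgae, S100a4, S100a6, Ccr2 and Itgb1 of the effector list, with Nt5e, Prg4 and Gbp2b) was made on cells thinned to 2000 UMIs. At least 3 of the 10 were found in 42 of 234 WT members (17.9%, 13.3 to 23.5%) and 3 of 195 CKO members (1.54%, 0.318 to 4.43%). None was found in 50.9% of WT and 77.4% of CKO members. The genes were chosen for their low CKO values, so the difference between the libraries restates that choice.

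The 65 WT members with a Maf UMI were set beside the 170 without, a split made after seeing the data and given as a description. Foxp3 stood at 297 CPM with and 301 CPM without Maf, and Il2ra at 320.4 and 353 CPM. Icos stood at 406 and 42.8 CPM, S100a6 at 857 and 27.9 CPM, Itgae at 186 and 37.5 CPM, and Ctla4 at 399 and 142 CPM. Bcl2 (159 and 416 CPM), Satb1, a chromatin organizer of naive T cells (172 and 446 CPM), and Ly6c1 (23.3 and 134 CPM) were on the other side. All 30 Il10 UMIs came from members with a Maf UMI, where a count of 0 in the 170 others allows up to 2.62 CPM. The cells with a Maf UMI were deeper, with a median of 6986 against 5809 UMIs.

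Among the 170 WT and 186 CKO members without a Maf UMI the ratios of some genes were nearer to 1 and those of others were not. The CKO over WT ratio was 0.487 (0.277 to 0.827) for Icos, and 0.753 (0.585 to 0.966) for Ctla4 and 0.717 (0.498 to 1.02) for Nt5e, which are not on the effector list. It was 0.185 (0.0702 to 0.415) for Itgae, 0.37 (0.253 to 0.53) for Itgb1 and 0.106 (0.0209 to 0.34) for S100a6, while S100a4 gave 48 UMIs in WT and none in CKO. Of the 21 effector genes measured over all members, 13 were at the floor here, with a median log2 ratio of -0.064. Over the 20 of the 21 that had a UMI in these cells the median was -0.56, with 14 ratios below 1. Il7r (0.318, 0.239 to 0.419), Ly6c1 (2.64, 2.17 to 3.21), Isg15 (2.68, 2.34 to 3.07) and Ifitm3 (2.75, 2.14 to 3.58) differed in the same directions as over all members. Gata3 had a ratio of 1.68 (1.27 to 2.24) there.

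**Figure D3:**
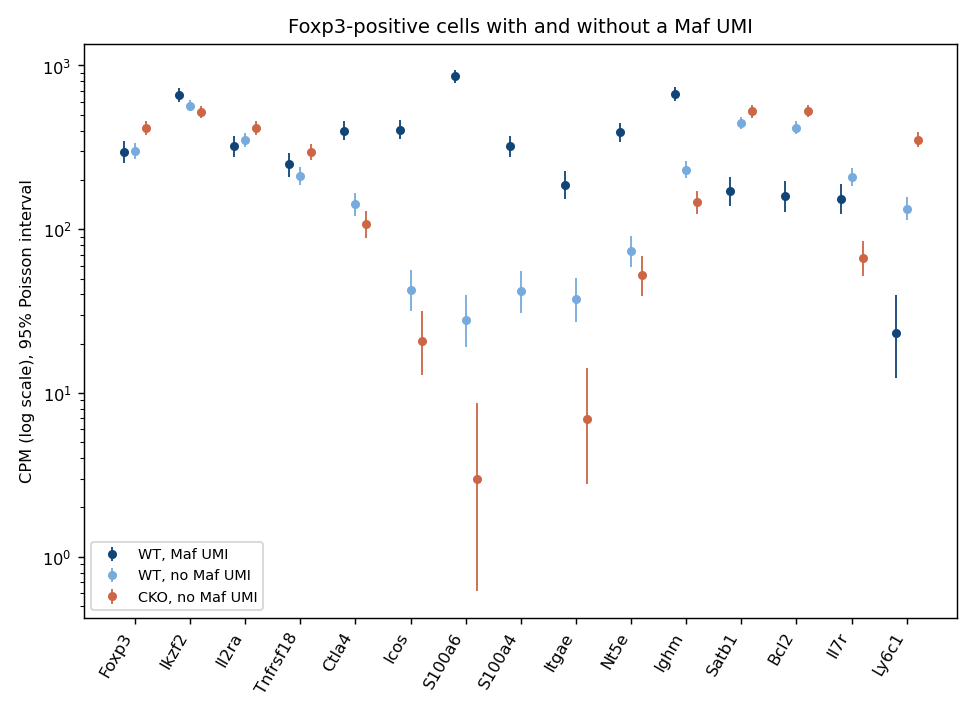
Level in CPM (vertical log scale) of 15 genes in 65 WT Foxp3-positive cells with a Maf UMI (dark blue), 170 WT cells without (light blue) and 186 CKO cells without (orange), with exact 95% Poisson intervals; S100a4 had 0 UMIs in the CKO cells and is not drawn there. Foxp3, Ikzf2, Il2ra and Tnfrsf18 lie close together in the WT cells, while Icos, S100a6, S100a4 and Itgae lie lower and Ly6c1, Satb1 and Bcl2 higher in cells without a Maf UMI.

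Interferon-stimulated genes, the antiviral programme that type I and other interferons switch on, leaned the other way. Of 60 measured members of a list of 72, 14 were higher in CKO and 1 was lower, beside 3.89% and 4.78% of all genes. The median log2 ratio was 0.30, against 0.44 for the same list in Foxp3-negative Cd4 T cells, where 19 were higher. The median was -0.0069 when a Cd4 UMI was also required of the members and 0.075 with at least 2 Foxp3 UMIs, and 0.54 with every cell thinned to 2000 UMIs.

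Isg15, a ubiquitin-like modifier, stood at 279 CPM in WT (475 UMIs, 102 cells) and 669 CPM in CKO (797 UMIs, 113 cells), a ratio of 2.40 (2.14 to 2.70), and 2.03 (1.95 to 2.11) in Foxp3-negative cells. Irf7, the factor that amplifies the response, was at 87.4 and 191 CPM (2.19, 1.77 to 2.71). Ifitm3, which blocks viral entry, was at 58.1 and 218 CPM (3.74, 2.96 to 4.77), with 46.5% of its WT UMIs in 1 cell, and its ratio in Foxp3-negative cells was alike at 3.86 (3.46 to 4.32). Ifit1 (1.95, 1.62 to 2.34) and Ifit3 (1.78, 1.46 to 2.18), which bind foreign RNA, and Bst2, which tethers virions (1.66, 1.48 to 1.86), were higher too. By share, Isg15 was found in 22.6% (17.5 to 28.6%) of WT and 44.6% (37.5 to 51.9%) of CKO members, against 12.2% and 17.9% of B cells. The lower member was Ifi208, with 161 UMIs in WT and 31 in CKO (0.276, 0.181 to 0.407), and a ratio of 0.778 in Foxp3-negative cells. Reads of Ifi208 may be shared with near-identical neighbours of its gene family, so its value is uncertain, and the same holds for Ifit3 and its copy Ifit3b.

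The 250 bases before the start of 3 of these genes are shown because they hold a motif of interferon-stimulated response elements, the half-site GAAA followed by 2 bases of any kind and GAAA again, searched on both strands. Capitals mark each match, where overlapping matches run together. Sequences are from RefSeq on GRCm38.p6, on the gene's strand, 5′ to 3′, for Isg15 at chr4:156200819-156201068 (minus), Ifit1 at chr19:34640639-34640888 (plus) and Bst2 at chr8:71537473-71537722 (minus).
Isg15: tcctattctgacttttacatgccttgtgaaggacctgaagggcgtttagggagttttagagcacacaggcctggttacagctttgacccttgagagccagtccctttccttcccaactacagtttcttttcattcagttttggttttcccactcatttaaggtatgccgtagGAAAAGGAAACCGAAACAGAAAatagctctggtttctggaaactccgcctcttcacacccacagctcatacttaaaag
Ifit1: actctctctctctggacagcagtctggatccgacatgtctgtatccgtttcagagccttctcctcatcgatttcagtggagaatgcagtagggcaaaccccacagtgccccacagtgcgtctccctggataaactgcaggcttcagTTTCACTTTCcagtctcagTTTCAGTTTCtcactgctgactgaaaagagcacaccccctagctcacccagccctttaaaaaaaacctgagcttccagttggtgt
Bst2: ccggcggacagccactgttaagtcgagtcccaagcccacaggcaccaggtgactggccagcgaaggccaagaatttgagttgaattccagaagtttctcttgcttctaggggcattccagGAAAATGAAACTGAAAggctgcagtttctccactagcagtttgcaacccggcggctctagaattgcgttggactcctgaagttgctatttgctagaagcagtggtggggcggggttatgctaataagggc
The motif was found in 5 of the 12 higher members with a promoter in the table (41.7%) and in 23 of 47 measured members (48.9%), against 3.97% of all measured genes and 3.46% of all 27025 promoters. A match of these letters is a description and not evidence of binding.

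Signalling genes downstream of interleukin-2 and related cytokines were mixed. Of 17 measured, beside 3.89% and 4.78% of all genes higher and lower, Cish (83.9 and 150.3 CPM; 1.79, 1.43 to 2.25) and Socs1 (89.2 and 177 CPM; 1.99, 1.61 to 2.46), both feedback inhibitors of cytokine receptors, were higher and Il7r was lower. Cish and Socs1 had ratios of 1.98 and 1.60 in Foxp3-negative cells. Il2rb had a ratio of 1.26 (1.09 to 1.46). Of the T cell receptor and costimulation list, with 26 measured, 3 were lower (Icos, Cd28 at 0.626 and the phosphatase Ptpn22 at 0.561) and none higher, against the same shares of all genes.

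Genes induced early by the antigen receptor went both ways, with 2 of 22 measured higher and 2 lower, beside 3.89% and 4.78% of all genes. Nr4a1, which reports recent receptor signalling, was at 47.5 CPM in WT against 96.6 CPM in CKO (2.03, 1.52 to 2.73), with 1 WT cell holding 24.7% of its UMIs. Dusp5 was higher as well (1.64, 1.28 to 2.11), whereas Jun (0.572, 0.473 to 0.688) and Dusp1 (0.554, 0.429 to 0.71), which also respond to tissue handling, were lower. Lta, lymphotoxin alpha, was at 34.6 and 90.7 CPM (2.62, 1.89 to 3.66), against 1.13 (0.922 to 1.38) in Foxp3-negative cells. Of 9 measured heat shock genes 4 were higher and none lower, read against the same shares, Hsp90aa1 at 424 and 745 CPM (1.76, 1.59 to 1.94). Of 7 measured genes of glucocorticoid and nutrient stress responses, Ddit4 (0.404, 0.269 to 0.592) and Tsc22d3 (0.622, 0.477 to 0.805) were lower, with Foxp3-negative ratios of 0.55 and 0.626.

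Of 13 measured DNA damage and p53 target genes 1 was lower, Gadd45b (0.573, 0.368 to 0.873), and none higher, beside 4.78% and 3.89% of all genes lower and higher. Bax, a p53 target that promotes cell death, had a ratio of 1.34 (1.09 to 1.63), and Atm, a damage kinase, 0.716 (0.491 to 1.03). Of 11 measured cell death genes Bcl2a1b was lower (0.465, 0.315 to 0.673), a gene with near-identical copies whose reads may be divided among them. Among 32 measured partners and regulators of Foxp3, Gata3 was higher and Nfatc1 (0.58) and Hif1a (0.655) were lower. Among 14 measured homing genes Itga4 (0.602), Itgb1 and Cd44 were lower. No called gene was found among 11 measured genes of recent thymic emigrants or 7 of cholesterol synthesis, and among 20 of MHC class I presentation H2-Q6 was lower (0.498), another gene with near-identical relatives.

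**Figure D4:**
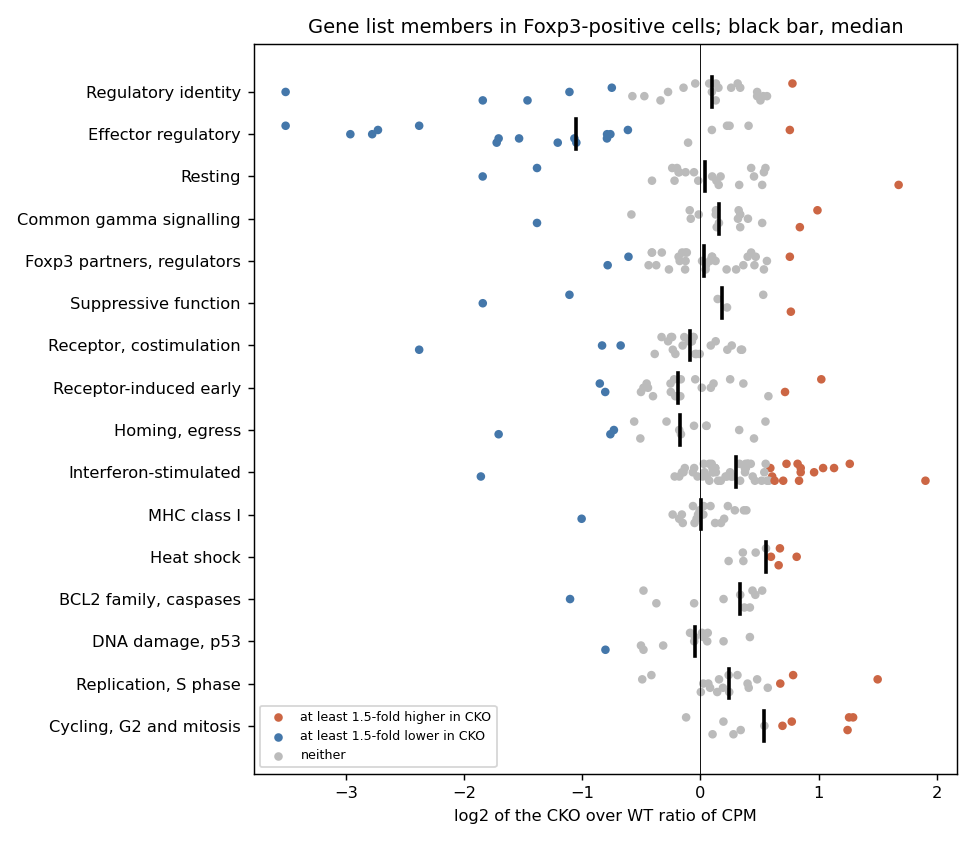
Log2 of the CKO over WT ratio of CPM (horizontal axis) for each measured member of 16 gene lists in Foxp3-positive cells, 1 point per gene, orange where higher and blue where lower by at least 1.5-fold with an interval excluding 1, with black bars at the list medians. The effector list has its median at -1.05 and 15 blue points, and the interferon-stimulated list has 14 orange points.

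Some cycling genes were higher in CKO by summed counts while found in fewer cells. Mki67, a marker of dividing cells, gave 79 UMIs in 25 of 235 WT members and 132 UMIs in 4 of 197 CKO members, or 46.4 and 110.9 CPM (2.39, 1.80 to 3.20). Hist1h1b, a linker histone made in S phase, gave 223 UMIs in 21 cells and 679 UMIs in 3 cells (4.36, 3.74 to 5.09). Of 11 measured genes of the mitotic list 5 were higher (Mki67, Top2a, Birc5, Ube2c and Pclaf) and none lower, beside 3.89% and 4.78% of all genes, and each of the 5 was found in fewer CKO than WT members. Stmn1 (0.919) and Hmgb2 (1.07) were not called, and Prc1, which is on no list, was found in 7 WT and 9 CKO members. A cell with at least 3 of 17 cycling genes was found 15 times in WT (6.38%, 3.62 to 10.3%) and 4 times in CKO (2.03%, 0.556 to 5.12%), with overlapping intervals. The 4 CKO cells held 67799, 50512, 25916 and 7995 UMIs, together 12.8% of all CKO member UMIs and 99.3% of the UMIs of the cycling genes. After thinning to 2000 UMIs a Mki67 UMI was found in 5.56% (2.99 to 9.31%) and 1.54% (0.318 to 4.43%). With every cell at equal depth the log2 ratio of Mki67 was -0.64 and that of the list's median -0.31, the opposite direction.

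Without cells with at least 3 cycling genes, an alternative added after seeing the data, 162 genes were higher and 215 lower, and 282 of the 417 genes called at first were called again. Without the cell with most UMIs of each gene 124 were higher and 236 lower, with 318 of the 417 called again. Cks1b, Prc1, Hist1h2ap, Hist2h2ac, Pclaf and Rrm2 of the 15 highest genes each had at least 44.3% of their CKO UMIs in 1 cell. Mcm5, which loads at replication origins (1.72, 1.20 to 2.48, 31 and 26 cells), Rrm2 and Dut were the higher ones among 19 measured replication genes. None was lower, beside 3.89% and 4.78% of all genes higher and lower. The median log2 ratio of this list was 0.24. It was -0.085 thinned to 2000 UMIs and -0.14 as a mean over cells, each over 13 genes at the floor. Without cycling cells it was -0.20 over 11 genes, and without Maf-bearing members -0.024. The other alternatives kept its sign.

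**Figure D5:**
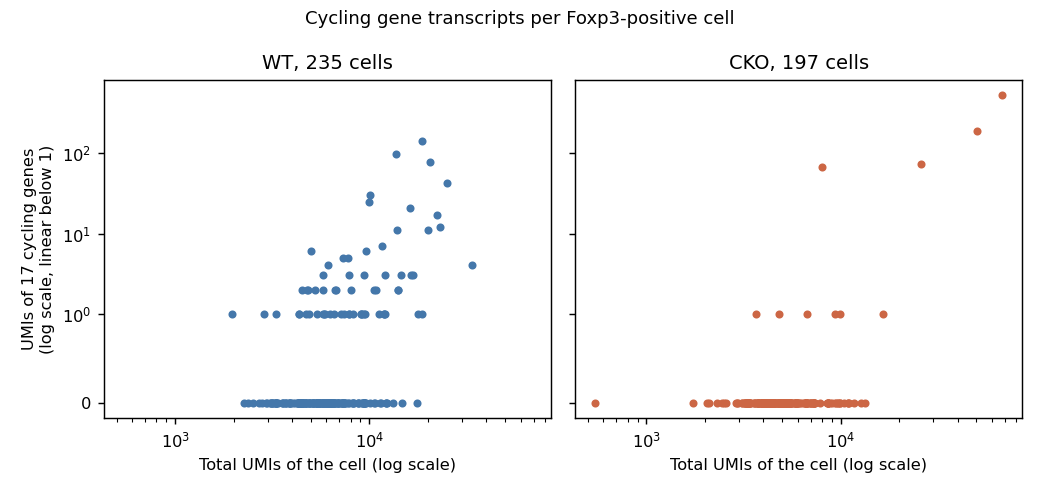
UMIs of 17 cycling genes (vertical axis, log scale that is linear below 1) against total UMIs (horizontal log scale) for each of 235 WT (blue, left) and 197 CKO (orange, right) Foxp3-positive cells. In CKO 4 cells carry nearly all cycling transcripts, the deepest with 67799 UMIs, and WT has more cells at intermediate values.

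B cell transcripts remained among the members despite the exclusion on Cd79a and Ms4a1. Ighm, the immunoglobulin mu chain, was lower, at 376 CPM in WT (640 UMIs, 149 cells) and 138 CPM in CKO (164 UMIs, 85 cells; 0.367, 0.307 to 0.436), against 0.871 (0.822 to 0.923) in Foxp3-negative cells. Its level in B cells was 2965 CPM in WT against 3350.1 CPM in CKO. In WT it stood at 671 CPM in members with a Maf UMI and 231 CPM in those without. Igkc, the kappa light chain, went the other way, at 22.3 and 66.3 CPM (2.98, 2.0 to 4.50), and stood at 11611 and 10208 CPM in B cells. Of the 596 UMIs of H2-Aa, H2-Ab1, H2-Eb1 and Cd74 in WT, 430 (72.1%) came from 1 cell of 25202 UMIs that also held 12 of the 17 cycling genes and had a high doublet score. Without the cells with high doublet scores the log2 ratios of H2-Aa and H2-Ab1 were 1.60 and 2.06, against -1.15 and -0.74 with them. That alternative kept 222 of 235 WT members and all 197 CKO members, the CKO cell of 67799 UMIs among them. It thus changed the WT side of the ratio only. Whether B cell RNA plays a part in the effector gene values was not tested. Levels of the lower effector genes in WT B cells varied. Maf and Icos stood there at 8.72 and 0.436 CPM, against 269 and 162 CPM among the WT members. S100a11 stood at 180 against 202 CPM, S100a10 at 311 against 852 CPM, and Cd44 at 22.8 against 39.9 CPM.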

How the data were processed

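Lymph node cells were captured with a 10x Chromium Next GEM kit that reads transcript 3′ ends, per the labels. The deposited values are whole UMI counts per barcode for 32285 genes, without normalization. Per the file headers they came from Cell Ranger 6.0.2, but Cell Ranger 5.0.0 stands in the submitters' processing notes, beside Seurat 4.0.3 and mm10, so the version is uncertain. Members and gene lists were chosen with earlier results of these data known.

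Counts were summed over members and scaled to CPM by their total, with exact Poisson, binomial and conditional binomial intervals (SciPy 1.17.1). Intervals of a difference of log2 ratios between the populations were not exact but a normal approximation from the counts. No p-value was computed. Receptor and immunoglobulin segments, mitochondrial, sex-linked and rule genes were not ranked. Doublets were left in; Scrublet (Scanpy 1.11.5, 0.8% per 1000 barcodes) was an alternative. Foxp3-negative Cd4 T cells met the rule apart from Foxp3 and held a Cd4 UMI, and can include regulatory cells whose Foxp3 was not captured. B cells held Cd79a and Ms4a1 and no Cd3 UMI. Named were the 15 highest and 15 lowest called genes, predicted genes and those 10 times as high in B cells left out, the called and the 3 highest and lowest members of each list, the 15 highest and 10 lowest against Foxp3-negative cells, markers, and genes of the UMI shares. Gene positions are from GENCODE M21 on GRCm38. The ratio step was tested on simulated data.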

Additional observations from a re-analysis of the deposited data

Results flagged for a closer look

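The CKO over WT difference of Top2a, which untangles DNA in mitosis, and of the histone gene Hist1h3c had opposite directions in Foxp3-positive and Foxp3-negative Cd4 T cells, and the difference was not tested between animals. Top2a had a ratio of 1.71 (1.30 to 2.26) in Foxp3-positive and 0.567 (0.479 to 0.669) in Foxp3-negative cells, a difference of 1.59 on the log2 scale. Hist1h3c had ratios of 2.54 (1.92 to 3.38) and 0.644 (0.547 to 0.757), a difference of 1.979. Among CKO members 1 cell held 69.2% of the Top2a UMIs and 61.3% of the Hist1h3c UMIs.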

How the results depend on the processing

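The higher Foxp3-positive share of T cells in CKO, 4.18 points, kept its direction under 10 alternatives, and was 2.17 points with at least 2 Foxp3 UMIs, 2.24 with a Cd4 UMI as well and 1.07 with cells thinned to 1000 UMIs. The 417 called genes became 692 (301 higher, 391 lower) with a floor of 10 CPM, 184 (98 and 86) with 50 CPM and 106 (38 and 68) at 2-fold. Alternatives chosen after seeing the data gave 124 higher genes without the top cell of each gene, and 141 lower genes without members with a Maf UMI, where 211 of the 417 were called again. The median of the effector list was -0.064 without Maf-bearing members, over the 13 of 21 genes still at the floor, -0.56 over the 20 with a UMI there, and between -1.32 and -0.97 otherwise. The identity list was at 0.35 without them. The interferon list was at 0.075 with at least 2 Foxp3 UMIs, -0.0069 with a Cd4 UMI, 0.45 as a mean over cells, 0.54 thinned to 2000 UMIs, 0.45 without cycling cells and 0.47 without Maf-bearing members. The mitotic list was at -0.10 as a mean over cells, -0.31 thinned, 0.020 without top cells and -0.068 without Maf-bearing members.

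Of 93 named called genes 16 changed sign under at least 1 alternative, as did 40 of 100 that were not called. The 16 were cycling, histone and MHC class II genes, Cd274 (-0.30 with a Cd4 UMI) and Capg (0.22 without Maf-bearing members). As a mean over cells they were -0.52 for Dut, -0.044 for Ube2c, -0.22 for Mki67, -0.53 for Pclaf, -1.45 for Top2a, -0.67 for Birc5, -0.52 for Rrm2, -0.016 for Hist1h1b, -0.76 for Hist1h3c, 0.52 for H2-Ab1 and 0.20 for H2-Aa. Thinned to 2000 UMIs they were -0.89 for Dut, -0.74 for Ube2c, -0.64 for Mki67, -1.06 for Pclaf, -1.22 for Top2a, -1.32 for Birc5, -1.74 for Rrm2, -0.53 for Hist1h1b, -2.32 for Hist1h3c, 0.58 for H2-Ab1, 0.50 for H2-Aa and 0.12 for Cd74. Without cycling cells they were -0.43 for Dut, -0.19 for Hist2h2ac, -3.22 for Top2a, -1.52 for Rrm2, 2.27 for H2-Ab1, 1.66 for H2-Aa, 1.11 for H2-Eb1 and 0.0040 for Cd74. Without top cells they were -0.024 for Dut, -0.24 for Ube2c, -0.58 for Top2a, 1.89 for H2-Ab1, 1.36 for H2-Aa and 1.06 for H2-Eb1. Without Maf-bearing members they were -0.27 for Dut, -0.15 for Hist2h2ac, -0.60 for Mki67, -0.86 for Top2a, -1.62 for Birc5, -4.28 for Hist1h1b and -2.40 for Hist1h3c. H2-Ab1, H2-Aa and H2-Eb1 were at 1.72, 1.46 and 1.74 with at least 2 Foxp3 UMIs, and at 2.06, 1.60 and 1.25 without high doublet scores, where Cd74 was at 0.062. Apart from the values resting on 1 or 4 deep cells, the cause was not tested. Of the other values of named genes 2206 lay within their first interval and 225 outside it with the same sign or no call.

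Over all alternatives run, the log2 ratio was -3.49 to -2.88 for Maf, -4.29 to -2.44 for Itgae, -2.72 to -1.04 for Icos, 1.40 to 1.94 for Ly6c1 and 0.76 to 1.42 for Isg15. No paired analysis was possible because each genotype has 1 library. Depth limits sparse genes such as Rpa1, with 63 and 33 UMIs.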
